A study of Mus musculus with 6 samples.

Results

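The regions described here are numbered small RNA clusters that held almost no reads in mouse pachytene spermatocytes, male germ cells in the prolonged phase of meiosis during which homologous chromosomes are fully paired. A cluster belonged to the set if its name began with a digit and its deposited values summed to less than 40 reads over the 4 small RNA libraries, with a cluster that a table did not list taken as 0. The rule took 1964 of the 2260 numbered clusters and of 4944 clusters in all; the other 2684 clusters have names beginning piC. The numbers run from 1 to 2710, and 453 of them occur in no table and were not analysed here. The members were chosen by their summed values in these libraries, so how low they are is a description and carries no test.

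The 4 libraries were 1 from Alkbh1-/- mice, 1 from TzfpGTi/GTi mice and 2 from wild type (WT). Per the labels, the Alkbh1-/- line carries a targeted deletion of exon 6 and was backcrossed to C57/BL6, and the TzfpGTi/GTi line came from a gene-trap embryonic stem cell clone whose trapped splice acceptor lies before Tzfp exon 1. For WT the labels give no strain, and for no group do they give an age or the number of animals. Each library was made from 50 ng of RNA under 200 nt with 15 cycles of PCR and read as 36 bp single ends. Cluster reads totalled 7306115 in Alkbh1-/-, 14760893 in TzfpGTi/GTi, 10193940 in WT replicate 1 and 15319520 in WT replicate 2. Where a pair of WT values is given, WT replicate 1 stands before WT replicate 2. Nothing says that the WT libraries came from separate animals, so the spread between them may be technical.

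piRNAs are small RNAs bound by PIWI proteins of the germ line, and most are cut from long transcripts of defined genomic regions, the piRNA clusters. In the mouse, the clusters active at pachytene give a dense output that is largely outside transposons, and the transcription factor A-MYB (Mybl1) drives many of them, while other clusters are active earlier, in fetal and newborn germ cells. ALKBH1 is a dioxygenase of the AlkB family and TZFP (Zbtb32) a BTB zinc finger protein, and both are described in the study's title as repressing one piRNA cluster.

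The small RNA tables hold no genes, so the cell type could be checked only in the mRNA libraries that carry the same label. These were 1 from Alkbh1-/- and 1 from WT, so the cells of TzfpGTi/GTi could not be checked. All 10 pachytene markers examined, among them Ldhc, Piwil1 and Mybl1, were present there, at 128 to 4279 CPM in Alkbh1-/- and 119 to 4866 CPM in WT. The summed levels of the 3 matched Sertoli markers (of 4) were 37.4 CPM in Alkbh1-/- and 105 CPM in WT. For 2 matched Leydig markers (of 3) they were 87.6 and 41.5 CPM, and for 4 spermatid markers 559 and 511 CPM, in the same order of genotypes. The part of these other cells in the cluster values was not tested. In bulk libraries, fewer cells that make a cluster's RNA and less of it per cell cannot be told apart.

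The members held very little in every library. Their values summed to 2155 reads in Alkbh1-/-, 3367 in TzfpGTi/GTi, 2769 in WT replicate 1 and 2951 in WT replicate 2. As shares of all cluster reads these were 0.0295% (95% Wilson interval 0.0283 to 0.0308) in Alkbh1-/-, 0.0228% (0.0221 to 0.0236) in TzfpGTi/GTi, 0.0272% (0.0262 to 0.0282) in WT replicate 1 and 0.0193% (0.0186 to 0.0200) in WT replicate 2. These intervals reflect only the counting of reads, which were amplified and carry no molecular identifiers. TzfpGTi/GTi lay between the WT libraries, and Alkbh1-/- lay above both, by less than the WT libraries differed. With 1 mutant against 2 WT libraries, an exact permutation test cannot give a p below 0.333, so no test was made. By contrast, the 296 louder numbered clusters summed to 6792533 reads in Alkbh1-/-, 13775919 in TzfpGTi/GTi, 9518462 in WT replicate 1 and 14287012 in WT replicate 2.

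**Figure D1:**
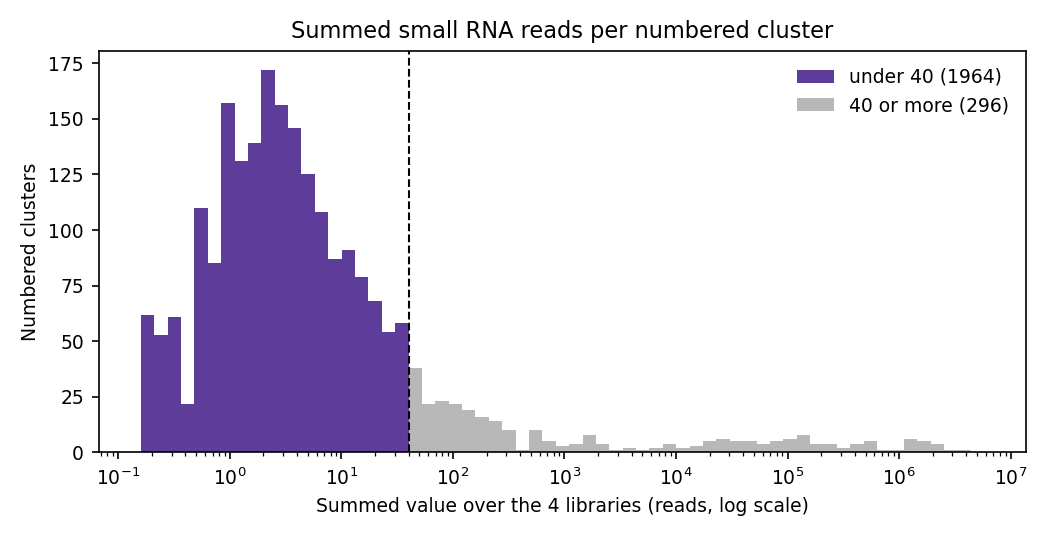
Histogram of the summed value of each numbered cluster over the 4 libraries (reads, log scale; vertical axis, number of clusters), with the 1964 members in purple, the 296 others in grey and the limit of 40 as a dashed line. No gap marks the limit, and 87 of the clusters above it held 10000 reads or more.

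Among the members, the summed value had a median of 2.5 reads (quartiles 1 and 6.52). In all, 411 members summed to less than 1 read, 416 to between 1 and 2, 522 to between 2 and 5, 261 to between 5 and 10, 209 to between 10 and 20 and 145 to between 20 and 40. No gap separated them from the louder numbered clusters, of which 71 lay between 40 and 80 reads, 53 between 80 and 160, and 87 at 10000 or more. The limit therefore cuts through a continuous range. Just inside it stood clusters 2408 (38.8 reads), 712 (38.7), 724 (38.4), 1882 (38.0) and 1142 (38.0). Just outside stood 1035 (40), 1021 (40.05), 1953 (40.15), 2706 (40.43) and 380 (40.75).

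Values below 1 read are possible because the authors' values need not be whole: the smallest was 0.2. In 528 members (26.9%) no library reached 1 read. Of the members, 1732 (88.2%) had at least 1 value that was not whole (more than 0.01 from a whole number), close to the 89.5% of the louder numbered clusters and above the 72.5% of the 771 piC clusters that also summed to less than 40. A read that matches several places is often divided among them, which gives fractions; how these were made is not given in the labels. The highest value of any member in any library was 23.9 reads.

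The members were nearly as long as the louder numbered clusters. Their length ran from 4200 to 69000 bp with a median of 29800 bp (quartiles 22000 and 36000), against a median of 33800 bp for the louder numbered clusters and 20422 bp for the quiet piC clusters. All 1964 lengths were multiples of 200 bp, as were 293 of the 296 louder numbered lengths, but only 2 of the 771 quiet piC lengths. Together the members covered 56.6 Mb, overlaps included. Over the 4 libraries the median member held 0.909 reads per 10 kb, against 81.3 in the louder numbered clusters and 8.63 in the quiet piC clusters. The longest member was 2011 on mm9 chromosome 14 (106325001 to 106394000), which held 2.98 reads in Alkbh1-/-, 2 in TzfpGTi/GTi, and 5.73 and 0 in WT. Next came 1338, 362, 753 and 1073, of 60600, 58200, 56400 and 56000 bp. Cluster 1338 had 0.25 reads in Alkbh1-/-, none in TzfpGTi/GTi, and none and 0.333 in WT. The shortest member, 1076 on chromosome 7 (128740401 to 128744600), was also the densest, at 58.3 reads per 10 kb. It had 4 reads in Alkbh1-/-, 9 in TzfpGTi/GTi, and 5.25 and 6.25 in WT; it was picked out after its values were seen.

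Members lay on all 21 chromosomes. Over the 19 autosomes, 1786 of 2074 numbered clusters (86.1%) fell under the limit, with a range from 78.7% on chromosome 4 (122 of 155; Wilson interval 71.6 to 84.4) to 95.4% on chromosome 18 (62 of 65; 87.3 to 98.4). The X chromosome held the most members of any, 170, which were 96.0% (92.1 to 98.1) of its 177 numbered clusters. In males the X is transcriptionally silenced during pachytene, in the sex body. Chromosomes 2 (94.5%) and 19 (94.4%) lay nearly as high as the X, so the X stood at the upper end of a continuous range. Its members had a median summed value of 1.74 reads, below the 1.87 to 4.38 reads of the autosomes. Per 10 kb they held 1.53 reads, within the 1.29 to 2.84 of the autosomes. Of the X members 20.6% had a value in all 4 libraries, against 31.0% over the autosomes together, with chromosomes 2 (22.3%) and 19 (23.5%) near the X. In RPM (reads per 1000000 cluster reads), X members held 19.9 RPM in Alkbh1-/-, 15.4 in TzfpGTi/GTi, 16.5 in WT replicate 1 and 13.9 in WT replicate 2, in the order that all members took. On the Y chromosome 8 of 9 numbered clusters were members. Which genes these regions overlap was not examined, since no mm9 annotation was used here.

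**Figure D2:**
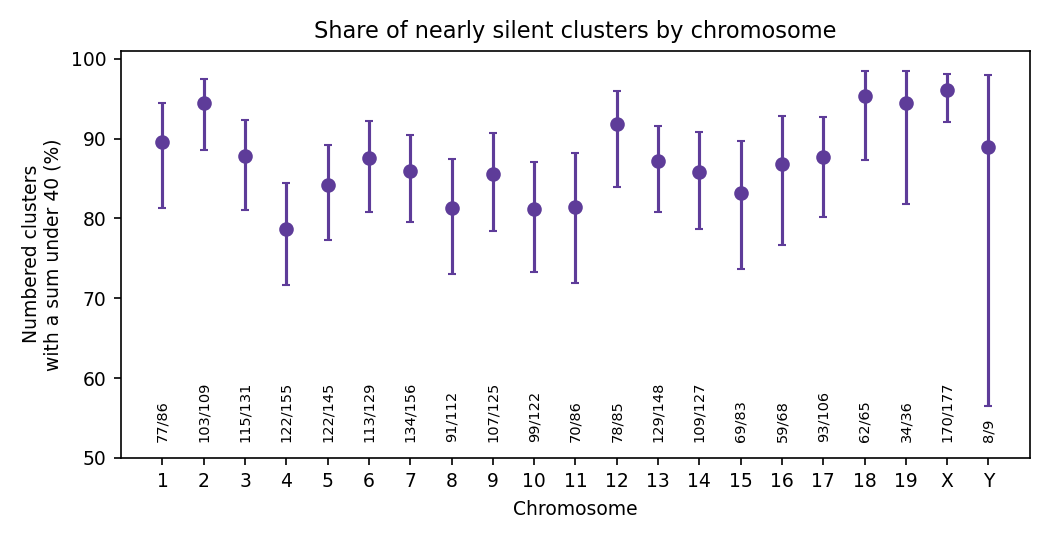
Share of numbered clusters with a summed value under 40 on each chromosome (vertical axis in percent, starting at 50; points with 95% Wilson intervals, counts printed below). Chromosome 4 was lowest at 78.7% and the X highest at 96.0%, with chromosomes 18, 2 and 19 close to it.

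Most members stood far from a louder numbered cluster, of which there were only 296. Distances from other places in the genome were not measured, so this is not shown to be particular to the members. The distance to the nearest louder numbered cluster had a median of 4502 kb (quartiles 1614 and 9816), and 45 members lay within 100 kb of one and 5 within 10 kb. To the nearest numbered cluster of any level the median was 297 kb, and 118 members lay within 10 kb. The numbers largely follow position along the genome, and the longest unbroken run of members was 52 on chromosome 7, from 909 to 968 (3699101 to 27779200). Runs of 51 on chromosome 5 and 47 on the X followed. No member overlapped a louder numbered cluster or a piC cluster, while 14 pairs of members overlapped each other, 7 of them with identical values in every library.

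The 5 members closest to a louder numbered cluster were looked at by distance, after values were seen. Cluster 841 on chromosome 6 (81792601 to 81827400) had 2.5 reads in Alkbh1-/-, 2.5 in TzfpGTi/GTi, and 2.25 and 0 in WT. Only 4600 bp away, cluster 842 (81832001 to 81868000) had 51308 reads in Alkbh1-/-, 138930 in TzfpGTi/GTi, and 97681 and 144008 in WT. The cluster beside it was thus loud in all 4 libraries while 841 stayed under 3 reads in each. Clusters 1642 and 1740 each lay 400 bp from a louder neighbour, 2256 lay 1900 bp and 1573 lay 2900 bp away, and none of these 4 exceeded 2.5 reads in any library. Their louder neighbours had at most 114 reads in any library, so 841 alone lay beside a strong signal.

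The cluster with the highest fold of TzfpGTi/GTi over WT of all those fitted is a loud numbered one on chromosome 7 (132472368 to 132476593), and the members near it were low in every library. The loud cluster had 1858 reads in Alkbh1-/-, 57188 in TzfpGTi/GTi, and 4 and 94.0 in WT. Its nearest member, 1083, lies 180 kb away (132657001 to 132693000) and had 2.67 reads in Alkbh1-/-, 1.73 in TzfpGTi/GTi, and 4.33 and 1.67 in WT. On the other side, 1080, 334 kb away, had 0.5 reads in each mutant, and 0 and 0.25 in WT. For 1078, 509 kb away, the values were 0.5 reads in Alkbh1-/-, 0 in TzfpGTi/GTi, and 0 and 1 in WT. The TzfpGTi/GTi values of these 3 members lay within the range of the other libraries. The limit on the summed value excludes any cluster with a rise like that of the loud cluster. The absence of such a rise in members therefore follows from how they were chosen. Louder numbered clusters that lie closer to the loud cluster are left out by the same limit. Whether the rise is confined to the loud cluster was not tested. The next nearest members were 1086 at 3256 kb and 1077 at 3469 kb. Cluster 1077 had 0.5 reads in TzfpGTi/GTi and none in the other 3 libraries.

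Most members were missing from at least 1 library. All 4 libraries listed 594 members (30.2%), 3 listed 451, 2 listed 446 and 1 alone listed 473 (24.1%). Alkbh1-/- had a value for 1255 members, TzfpGTi/GTi for 1281, WT replicate 1 for 1322 and WT replicate 2 for 1236. The order did not follow depth: WT replicate 2, the deepest library, listed the fewest. Of the 771 quiet piC clusters, whose summed values are higher within the same limit (median 18.0 reads against 2.5), 78.7% were listed in all 4.

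**Figure D3:**
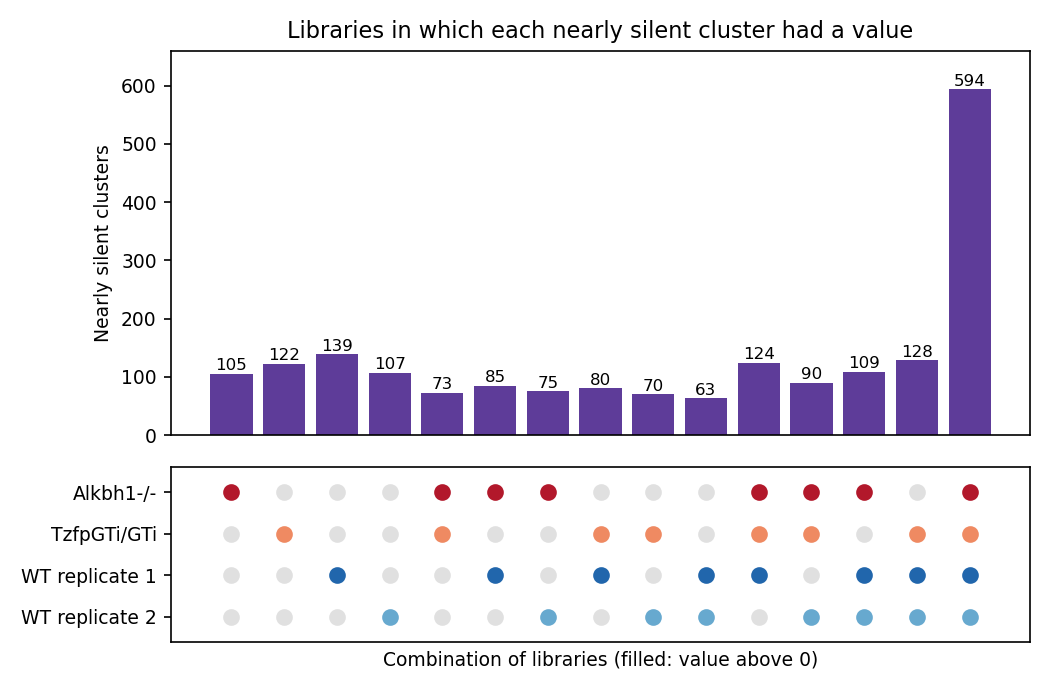
Number of members for each combination of libraries with a value above 0 (bars; filled circles below mark the libraries). The 594 members listed in all 4 libraries form the highest bar, and the 4 bars for a lone library hold 105 to 139 members, mutants and WT alike.

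Some members appeared in a mutant only, in numbers like those of members that appeared in a single WT library only. In Alkbh1-/- alone 105 members (5.35%) had a value and in TzfpGTi/GTi alone 122 (6.21%), against 139 (7.08%) in WT replicate 1 alone and 107 (5.45%) in WT replicate 2 alone. A further 73 had a value in both mutants and in neither WT library, and 63 had one in both WT libraries and in neither mutant. The 4 other pairs of libraries gave 70 to 85. Of the quiet piC clusters, whose sums are higher, 0.649% had a value in Alkbh1-/- alone and 0% in TzfpGTi/GTi alone. In WT replicate 1 alone it was 1.04% and in WT replicate 2 alone 0.519%. The members' counts of lone values move with what counts as present. With at least 1 read as the rule, they were 124 in Alkbh1-/-, 160 in TzfpGTi/GTi, 130 in WT replicate 1 and 139 in WT replicate 2. With a read of the shallowest library scaled to each depth as the least value, 247 were present in Alkbh1-/- alone, 65 in TzfpGTi/GTi alone, 105 in WT replicate 1 alone and 35 in WT replicate 2 alone, which runs inversely to depth.

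The lone values themselves were small. Of the 105 in Alkbh1-/-, 64 were below 1 read, 22 were exactly 1 and 19 were above 1. Of the 122 in TzfpGTi/GTi, 84 were below 1, 21 were exactly 1 and 17 were above 1. For WT replicate 1 these counts were 91, 32 and 16, and for WT replicate 2 they were 62, 26 and 19. The median lone value was 0.5 reads in each library. So in every library most lone values were below 1. Whether such a value is a part of a read that was divided among several places was not tested.

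In Alkbh1-/- the highest lone values were those of cluster 763 on chromosome 6 (6921401 to 6943600) with 4.5 reads and 1127 on chromosome 8 (24643701 to 24675300) with 4. Clusters 4 and 2639 had 2.5 reads each, and 203, 669, 1176 and 2332 had 2 each. In TzfpGTi/GTi they were those of 1557 on chromosome 11 (40439001 to 40458000) with 5 reads, 1238 on chromosome 9 (4476501 to 4514500) with 4.25 and 232 on chromosome 2 with 3.5. Clusters 334 and 1344 had 3 reads each, 843 had 2.67, 1041 had 2.5 and 216 had 2. The WT libraries gave lone values of similar size in reads. In WT replicate 2, 2386 had 4 reads, 1218 had 3.67, 1455 had 3 and 902 had 2.5. In WT replicate 1, 1782 had 3.33, 2588 had 2.5, 374 had 2.2 and 788 had 2. Scaled to depth they were lower than the highest in Alkbh1-/-. The highest lone value was 0.616 RPM in Alkbh1-/-, 0.339 in TzfpGTi/GTi, 0.327 in WT replicate 1 and 0.261 in WT replicate 2. A count of 0 allows up to 3 counts, which is 0.411 RPM in Alkbh1-/-, 0.203 in TzfpGTi/GTi, 0.294 in WT replicate 1 and 0.196 in WT replicate 2. The numbers of lone values of 3 reads or more were 2 in Alkbh1-/-, 5 in TzfpGTi/GTi, 1 in WT replicate 1 and 3 in WT replicate 2. Clusters 763, 1127, 4 and 2639, at 0.616, 0.547, 0.342 and 0.342 RPM in Alkbh1-/-, lay above the limits of the other 3 libraries. They were picked as the highest of 105 lone values in the shallowest library, and their own counting error was left out. How many of all clusters would pass in this way was not counted. Among the WT lone values, 1782 in WT replicate 1 lay above the limits of TzfpGTi/GTi and WT replicate 2 but not above that of Alkbh1-/-. In TzfpGTi/GTi, 1557 at 0.339 RPM lay above the limits of both WT libraries but not above that of Alkbh1-/-. For the other members seen in 1 mutant only, the value lay under the limit of WT replicate 1. None of them reached the 10 reads needed for the fit, so none has a test. The highest value shared by both mutants and absent from WT was that of cluster 1770 on chromosome 13 (32384601 to 32412400), with 2 reads in Alkbh1-/- and 4 in TzfpGTi/GTi.

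Members with 10 reads or more could be tested. There were 354 of these (18.0% of members), fitted together with all other clusters of 10 reads or more, 3161 in total; the remaining 1610 members have no test. The fit was edgeR's quasi-likelihood test on rounded values with TMM scaling (trimmed mean of M values), adjusted by Benjamini-Hochberg over all 3161 with calls made under 0.05. With a single library per mutant, the only residual degree of freedom came from the WT pair, and edgeR moderated it across clusters.

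No member passed in Alkbh1-/- over WT, in TzfpGTi/GTi over WT, or between the mutants, and the share of all 3161 clusters called was 0% in each comparison. The loud cluster on chromosome 7 (57188 reads in TzfpGTi/GTi, 4 and 94.0 in WT) was not called either (edgeR adjusted p = 0.260). With so few libraries, the lack of calls does not show that the members were unchanged. At an unadjusted p under 0.05 stood 13 members in Alkbh1-/- (7 higher, 6 lower), 10 in TzfpGTi/GTi (2 higher, 8 lower) and 14 between the mutants (11 higher in Alkbh1-/-, 3 lower). These were 3.67%, 2.82% and 3.95% of the 354, beside 9.71%, 1.83% and 6.61% of all clusters tested. DESeq2's Wald test called none in TzfpGTi/GTi, with 1 at an unadjusted p under 0.05; in the other comparisons it gave no adjusted p for any of the 354, and none had an unadjusted p under 0.05. The median log2 fold of the members was -0.03 in Alkbh1-/- (all clusters 0.01) and 0.02 in TzfpGTi/GTi (all clusters 0.01). The limit of 40 reads also bounds how large a fold a member can have.

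The order of the libraries was also counted, in RPM. Alkbh1-/- lay above both WT libraries in 132 members (37.3%) and below both in 108 (30.5%), where the shares over all 3161 clusters were 42.6% and 30.8%. TzfpGTi/GTi lay above both in 136 (38.4%) and below both in 103 (29.1%), where the shares over all clusters were 32.4% and 27.8%.

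**Figure D4:**
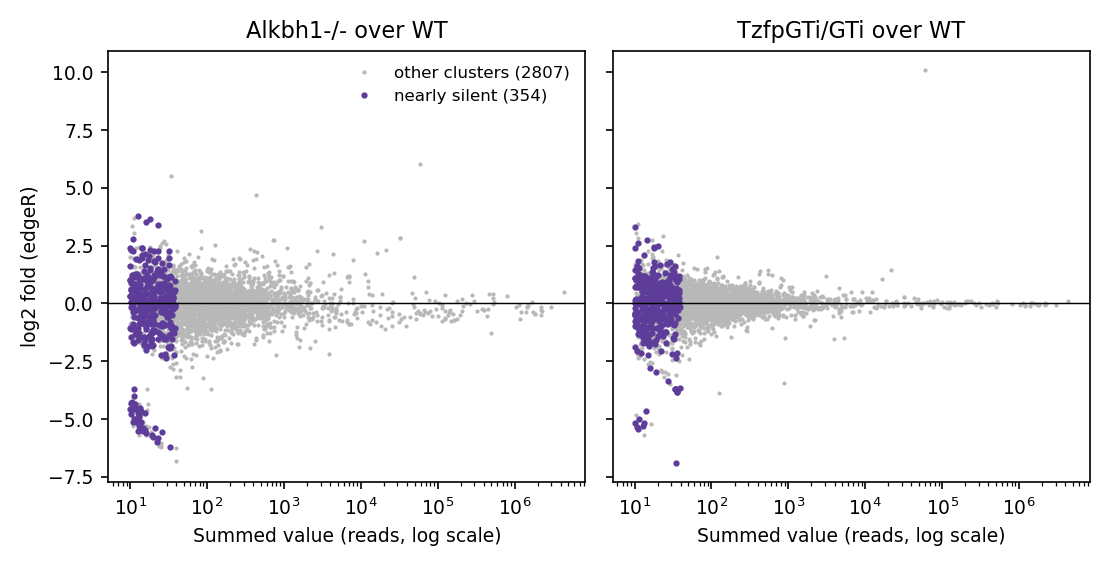
Log2 fold of Alkbh1-/- over WT and of TzfpGTi/GTi over WT (vertical axis, edgeR) against the summed value (reads, log scale) for the 354 members in the fit (purple) and the other clusters (grey). No point among the members passed the threshold, and the separate low band of purple points in the first panel holds the 39 members whose Alkbh1-/- value rounds to 0.

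The largest differences in Alkbh1-/- were the following, none past the threshold. Cluster 1086 on chromosome 7 (135732301 to 135768700) had 14.3 reads in Alkbh1-/-, 3.83 in TzfpGTi/GTi, and 1.42 and 3.2 in WT. Its Alkbh1-/- value stood above the other 3 libraries, with a log2 fold of 3.41 ± 0.91 (SE; 1 mutant and 2 WT libraries; edgeR adjusted p = 0.416). Cluster 1807 on chromosome 13 (54857501 to 54893500) had 9 reads in Alkbh1-/-, 7 in TzfpGTi/GTi, and 1 and 1 in WT. It was the only member among the 5 highest of both mutants, at 3.66 ± 1.04 in Alkbh1-/- (edgeR adjusted p = 0.416) and 2.43 ± 1.08 in TzfpGTi/GTi (0.999); the 2 comparisons share their WT libraries. Clusters 1443 and 349 had 9.83 and 11.8 reads in Alkbh1-/- and 1 each in TzfpGTi/GTi. In WT replicate 1 they had 2 and 3.17 reads, and in WT replicate 2 both were at 0. Cluster 171, the fifth by fold, had 4.92 reads in Alkbh1-/-, 3.83 in TzfpGTi/GTi, and 2 and 0 in WT. The size of these folds rested on which WT library was used: without WT replicate 1 the log2 fold of 1086 was 2.94, and without WT replicate 2 it was 4.10.

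At the low end, Alkbh1-/- had no reads in 23 of the 354 members, against 4 in TzfpGTi/GTi, 2 in WT replicate 1 and 6 in WT replicate 2; it is also the shallowest library. The member with most reads elsewhere was 1869 on chromosome 13 (100575301 to 100605700), with 0 reads in Alkbh1-/-, 14.2 in TzfpGTi/GTi, and 8.42 and 10.9 in WT. With Alkbh1-/- set at a floor of 3 counts, 1869 was 1.74-fold lower than in the nearer WT library (edgeR adjusted p = 0.421). Such folds leave out the counting error of the WT value, so they are not lower bounds. Clusters 903 (8.75 reads in TzfpGTi/GTi; 8.75 and 5.25 in WT) and 2651 (6.33; 7 and 6) were also at 0 in Alkbh1-/-, and 444 and 569 were at 0.5. Cluster 569 had 5.5 reads in TzfpGTi/GTi and 6 and 8 in WT, and was 1.27-fold lower at the floor. For the other 3 the nearer WT library lay under the Alkbh1-/- floor and no fold is given.

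In TzfpGTi/GTi the lowest fold belonged to cluster 715 on chromosome 5 (110607401 to 110643600). It had 4.08 reads in Alkbh1-/-, 0.5 in TzfpGTi/GTi, and 13.0 and 17.5 in WT. The TzfpGTi/GTi value stood below the other 3 libraries, and it was 0.0339 RPM, against 1.28 and 1.14 in WT. With TzfpGTi/GTi at the floor of 3 counts, 715 was 5.62-fold lower than in the nearer WT library, the counting error of WT left out (unadjusted p = 0.00286, edgeR adjusted p = 0.999; 0.0535 to 1 over the alternatives). Cluster 117 had no reads in TzfpGTi/GTi, 1 in Alkbh1-/-, and 4.58 and 5.58 in WT, and was 1.79-fold lower at the floor. The others of the 5 lowest, 1589, 613 and 2247, had 0.333, 0.5 and 0 reads in TzfpGTi/GTi, 5.5, 5.67 and 7.75 in WT replicate 1, and 3.58, 3 and 2.5 in WT replicate 2. In Alkbh1-/- they had 3.58, 3.93 and 0.583 reads. The nearer WT library of 613 and of 2247 lay under the TzfpGTi/GTi limit of 3 counts, so no fold is given for them.

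Among the higher ones, cluster 105 on chromosome 1 (89349901 to 89372100) had 14.3 reads in TzfpGTi/GTi and 2 in each of Alkbh1-/- and both WT libraries. In RPM its values were 0.965 in TzfpGTi/GTi, 0.274 in Alkbh1-/-, and 0.196 and 0.131 in WT. Its log2 fold of TzfpGTi/GTi over WT was 2.49 ± 0.91 (edgeR adjusted p = 0.999). The ratio to the pooled WT libraries was 6.16 (exact interval for counting error 1.9 to 25.2). Clusters 2655 and 2522 on the X chromosome had 6.7 and 8.83 reads in TzfpGTi/GTi, 2.15 and 3 in Alkbh1-/-, 0.2 and 2 in WT replicate 1, and 1 and 0.5 in WT replicate 2. Cluster 708 had 8 reads in TzfpGTi/GTi and 1 in each other library.

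**Figure D5:**
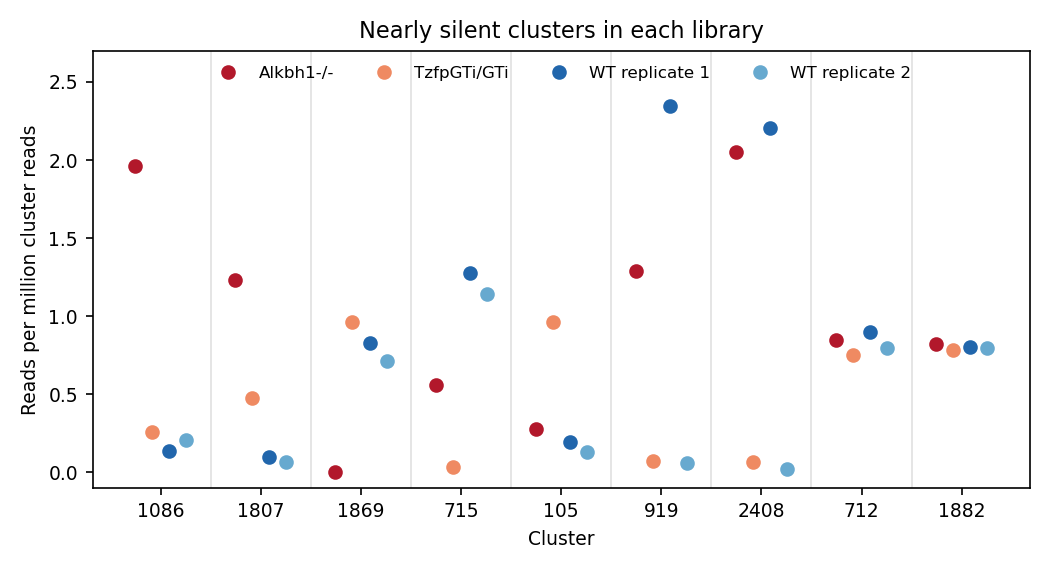
RPM (reads in the cluster over all cluster reads of the library, scaled) of 9 members in each library (points coloured by library, no error bars since each point is 1 library). Cluster 1086 is high in Alkbh1-/-, 715 is lowest in TzfpGTi/GTi, 919 and 2408 are high in both Alkbh1-/- and WT replicate 1, and the 4 points of 712 and of 1882 lie close together.

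Some members differed between libraries in a way that cut across the genotypes. A group of 5 members on chromosome 7, found after values were seen, had nearly the same value in each library: 917 (7734501 to 7780500), 919 (7978601 to 8014400), 921 (8632101 to 8678900), 922 (8819501 to 8859500) and 924 (9508901 to 9549100). Each had 9.4 to 9.6 reads in Alkbh1-/-, 0.6 to 1.1 in TzfpGTi/GTi, 23.4 to 23.9 in WT replicate 1 and 0.4 to 0.9 in WT replicate 2. Both Alkbh1-/- and WT replicate 1 were thus far above TzfpGTi/GTi and WT replicate 2. Over the 5 members the values summed to 47.2 reads in Alkbh1-/-, 4.5 in TzfpGTi/GTi, 118 in WT replicate 1 and 3 in WT replicate 2, or 173 in all. Each summed to between 33.8 and 35.3 reads, under the limit of 40 singly but not together. Whether they share the same reads was not tested. The pair 920 and 926 on the same chromosome had identical values (6.67 reads in Alkbh1-/-, 3.67 in TzfpGTi/GTi, and 1 and 2.83 in WT). On chromosome 2, clusters 198 and 199 differed by less than 0.5 reads in every library. Members with such shared values may not be separate observations, and each is counted singly in the numbers given here.

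Cluster 2408 on chromosome 18, the member with most reads, showed the same split: 15.0 reads in Alkbh1-/-, 1 in TzfpGTi/GTi, 22.5 in WT replicate 1 and 0.333 in WT replicate 2. The 2 WT libraries thus lay on opposite sides of both mutants. In 14 of the 354 members, the 5 above and 2408 among them, Alkbh1-/- and WT replicate 1 both exceeded 3 times the higher of the other libraries in RPM. The reverse, with TzfpGTi/GTi and WT replicate 2 high, held in 4 members, TzfpGTi/GTi with WT replicate 1 in 5, both mutants over both WT libraries in 3, Alkbh1-/- with WT replicate 2 in 2, and both WT libraries over both mutants in 0. These counts above 3 times were not made over all 3161 clusters, so they cannot be read as particular to the members. With no minimum fold, Alkbh1-/- and WT replicate 1 were the highest 2 libraries in 89 members (25.1%), where the share over all 3161 clusters was 28.7%. TzfpGTi/GTi and WT replicate 2 were the highest in 52 (14.7%), where the share over all clusters was 11.1%. Across the 354 members, Spearman's rho was 0.34 for TzfpGTi/GTi with WT replicate 2 and 0.18 for Alkbh1-/- with WT replicate 1. It was 0.13 for the WT pair and 0.05 for the mutant pair. For Alkbh1-/- with WT replicate 2 rho was 0.09, and for TzfpGTi/GTi with WT replicate 1 it was 0.07. Over all 1964 members it was 0.51 for TzfpGTi/GTi with WT replicate 2, 0.49 for TzfpGTi/GTi with WT replicate 1, 0.46 for the WT pair, 0.44 for Alkbh1-/- with WT replicate 1, 0.42 for Alkbh1-/- with WT replicate 2 and 0.41 for the mutant pair. The order of the pairs thus differed between the 354 members and all 1964, most of which held few reads. The limit on the sum constrains these values, which are a description. The deposited tables of Alkbh1-/- and WT replicate 1 share one naming scheme and those of TzfpGTi/GTi and WT replicate 2 another. Whether the scheme marks a batch was not tested. Each scheme holds 1 mutant and 1 WT library, so within a scheme there is no replicate. Within its scheme the log2 fold of Alkbh1-/- over WT was 4.10 for 1086, 3.46 for 1807, 2.69 for 1443, 2.40 for 349 and 1.71 for 171. That of TzfpGTi/GTi was 5.92 for 2522, 2.74 for 708, 2.63 for 105, 2.55 for 1807 and 2.55 for 2655. These members were chosen for lying above both WT libraries, so the positive sign follows from the choice. A fit of both mutants against both WT libraries with the scheme as a block, chosen after the data were seen, called 0 of the 354 members in edgeR's test, where 0.0949% of all clusters were called. At an unadjusted p under 0.05 in that test stood 6 members (1.69%) with the block, beside 6.33% of all clusters. Without the block 7 members (1.98%) stood there, beside 3.76% of all clusters, and 0% of all clusters were called. The Y-linked cluster 2706, just outside the limit, was split the other way: 2 reads in Alkbh1-/-, 20.5 in TzfpGTi/GTi, and 0 and 17.9 in WT.

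Other members were even across libraries. Cluster 1882 on chromosome 13 (112275501 to 112311500) had 6.02 reads in Alkbh1-/-, 11.6 in TzfpGTi/GTi, and 8.2 and 12.2 in WT, which is 0.824, 0.786, 0.804 and 0.796 RPM in the same order. Clusters 712 and 359 had 6.2 reads each in Alkbh1-/-, 11.1 and 12.4 in TzfpGTi/GTi, 9.15 and 6.8 in WT replicate 1, and 12.2 and 12.6 in WT replicate 2. These 3 had the least spread among the 25 members with 5 reads or more in every library. Of the remaining members with the highest sums, 724 had 6.67 reads in Alkbh1-/-, 17.5 in TzfpGTi/GTi, and 9.75 and 4.5 in WT. Cluster 1142 had 3 and 14 in the mutants and 4 and 17 in WT, and 1696 had 5 and 14.4 in the mutants and 4 and 14 in WT, both in the order Alkbh1-/- then TzfpGTi/GTi and WT replicate 1 then 2. Clusters 1759 and 2407 had 7.45 and 3 reads in Alkbh1-/-, 13.7 and 10.8 in TzfpGTi/GTi, 5.67 and 11.3 in WT replicate 1, and 10.5 and 12.3 in WT replicate 2.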

How the data were processed

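Small RNA was measured in 4 libraries and mRNA in 2. The deposited small RNA tables give each cluster's mm9 position, name and read value, which is deposited as an expected count, since many values are fractions. The deposited mRNA table holds whole-number counts per gene and served only for markers, as CPM of the library total. The submitters' processing notes list CASAVA 1.3, Novoalign, TopHat, bedtools and mm9 but give no roles. No source used here says how clusters were defined or reads divided. Starts are printed counted from 1.

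Expected counts were rounded for edgeR 4.0.16 (R 4.3.3), with 1 coefficient per genotype and TMM; clusters of 10 reads or more in sum entered. The biological coefficient of variation was 0.273. Each standard error is the absolute fold over the root of F. DESeq2 1.42.0 was an alternative, as were other scalings, filters and limits. Python 3.11.15 with scipy 1.17.1 gave Wilson and Clopper-Pearson 95% intervals.

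Members and lists were chosen with earlier results of these data known. Named clusters were the 10 highest sums and 5 just outside the limit, the highest lone values (8 per mutant, 4 per WT library, ties by number), the 5 highest and lowest folds per mutant outside both WT libraries, the 5 longest and the 5 nearest the cluster with the highest TzfpGTi/GTi fold; others are said to be chosen after values were seen. No genome of the mm9 build was used, so no sequence is printed.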

Additional observations from a re-analysis of the deposited data

Results flagged for a closer look

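In 3 of the named members the mutants lay on opposite sides of both WT libraries. Cluster 1869 on chromosome 13 was at 0 in Alkbh1-/- and above both WT libraries in TzfpGTi/GTi, with a fitted log2 difference of Alkbh1-/- over TzfpGTi/GTi of -6.52 that depends on the prior count. Cluster 677 on chromosome 5 had 1.33 reads in Alkbh1-/-, 20.7 in TzfpGTi/GTi, and 11.3 and 4.33 in WT, a log2 difference of -3.40. Cluster 1882 on chromosome 13 differed by -0.11, and all 4 of its libraries lay between 0.786 and 0.824 RPM. None of these differences passed in edgeR's test between the mutants (adjusted p = 0.730, 0.734 and 0.987).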

How the results depend on the processing

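The number of members called stayed at 0 in every comparison and alternative that gave adjusted p-values, with 1 exception. Without a filter on the summed value 1 member, 2408, was called between the mutants (edgeR adjusted p = 0.0328, up to 0.766 elsewhere). In that setting 33 of all 4553 clusters were called, and 29 of 1578 members had an unadjusted p under 0.05. The matching share of all clusters at that unadjusted level is not given here. Over all clusters, numbered and piC, the calls in Alkbh1-/- were 0 with a minimum of 10 reads, 21 with a minimum of 20, 41 without a filter and 1 with DESeq2 size factors; in TzfpGTi/GTi they were 0, 2, 3 and 0. Without scaling, the median log2 fold of all clusters in Alkbh1-/- was 0.13, against 0.01 with TMM. Lone values moved with depth scaling to 247 in Alkbh1-/-, 65 in TzfpGTi/GTi and 35 in WT replicate 2. With a limit of 20 reads the members' share of reads was 0.0195% in Alkbh1-/-, 0.0143% in TzfpGTi/GTi, 0.0174% in WT replicate 1 and 0.0119% in WT replicate 2, by construction. The number of members was 1819 with a limit of 20 and 2035 with a limit of 80, and between 1860 and 1898 when either WT library was left out, since members listed there alone drop out. The folds of the members named for their fold kept their sign in all 187 recomputed values. These members were chosen for lying outside both WT libraries, so the sign was largely set by that choice. None of the recomputed values that had an adjusted p passed the threshold. The size of the folds moved when a WT library was left out. The lowest and highest log2 folds were then 2.40 and 7.19 for 349, 2.69 and 6.93 for 1443 and 1.71 and 5.94 for 171 in Alkbh1-/-, and 1.66 and 5.92 for 2522 and 2.55 and 5.44 for 2655 in TzfpGTi/GTi. The higher value of each is against a WT library that rounds to 0, so it depends on the prior count. Leaving out a WT library leaves no residual degrees of freedom, so those folds have no test. Omitting the 5 chromosome 7 members with shared values, an alternative chosen after seeing the data, changed no call. No paired analysis was possible because the mutant libraries carry no replicate number, as far as the labels go; with the naming scheme as a replicate block, both mutants together gave 0 members called and 3 of all clusters, against 0 and 0 without the block. Depth limits every single-member ratio: cluster 708, with 8 reads in TzfpGTi/GTi against 1 in each WT library, had a ratio of 6.91 with a counting interval of 1.38 to 66.8.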
